A study of Chlamydomonas reinhardtii with 34 samples.

Results

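The gene models ATG8, ATG3, ATG4 and ATG12 of the autophagy conjugation machinery were followed in the green alga Chlamydomonas reinhardtii through nitrogen removal and a later addition of acetate. They are 4 of the 17301 gene models in the expression table. They were chosen by locus, Cre16.g689650 for ATG8, Cre02.g102350 for ATG3, Cre12.g510100 for ATG4 and Cre12.g557000 for ATG12, and all 4 were present. The table lists loci without gene names, so these names come from the choice of loci and were not checked against sequence. No measured value entered the choice, although earlier results of these data were known when it was made.

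Autophagy encloses cytoplasm in a double membrane and delivers it to the vacuole for breakdown, and cells without a nitrogen supply use it to recover amino acids. ATG8 is a small ubiquitin-like protein that is attached to the lipid phosphatidylethanolamine on the growing membrane. The protease ATG4 trims the end of ATG8 before this attachment and later cuts ATG8 from the membrane again. ATG3 is the conjugating enzyme that carries ATG8 to the lipid. ATG12 is another ubiquitin-like protein, which is joined to ATG5, and the product helps ATG3 to load ATG8. These roles were worked out mainly in yeast. The measurements here are of mRNA and say nothing of how much ATG8 was attached to lipid.

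RNA was sequenced from 2 strains, sta6 (CC-4348) and CC-4349. The sta6 strain lacks the small subunit of ADP-glucose pyrophosphorylase and makes no starch, and CC-4349 is the comparison strain. All cultures grew in HSM, a minimal medium, in light of 25 µmol photons per square metre and second, and were washed into HSM that held no ammonium chloride. Each strain gave 17 libraries, 1 per time point. A first sample preceded the wash, and 8 followed between 0 and 48 h of nitrogen starvation. Acetate was then added, and 8 more samples were taken between 0 and 48 h of this boost. None of the libraries used here came from a culture kept without acetate at the boost times, so acetate and the longer starvation cannot be told apart. For the tests the time points of each strain were pooled into phases. The replete phase held the pre-wash and 0 h libraries (n = 2), early starvation those at 0.5, 2 and 4 h (n = 3) and middle starvation those at 8 and 12 h (n = 2). The starved libraries at 24 and 48 h were pooled with the boost library at 0 h as late starvation (n = 3). Boost libraries at 0.5, 2 and 4 h made up the early boost (n = 3) and those from 8 to 48 h the late boost (n = 4). With 1 library per strain and time point, neighbouring times stand in for replicates. The p-values therefore measure the spread between times, and successive samples of a strain may come from 1 culture.

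Levels were read as RPKM, reads per kilobase of gene model and per 1 M reads, a unit that the authors did not name. Comparisons between genes rest on that reading, and reads of overlapping genes or near copies could not be assigned. The recovered depth was 10.7 to 24.1 M reads per library in CC-4349 and 5.72 to 53.9 M in sta6. The locus Cre03.g188250, used to check the strain labels, stood at 100 to 304 RPKM in CC-4349 and at 0.957 to 7.45 RPKM in sta6, with no overlap. The number of gene models at 1 RPKM or more ran from 12858 to 14300, and in each strain it was lowest in the starvation library at 0 h and the boost library at 0.5 h. Counts of members that passed in each comparison are given with and without these 4 libraries where they differ.

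ATG8, the protein that is conjugated, was the most abundant of the 4 mRNAs, with a mean of 274 RPKM over the 34 libraries. In CC-4349 its level was 71.4 RPKM before the wash and 142 at 0 h, then 116, 473 and 280.2 RPKM at 0.5, 2 and 4 h. It then read 284 and 297 at 8 and 12 h, 253 and 279.8 at 24 and 48 h, and 352 at 0 h after the boost. Thus the level was lowest before the wash, was highest at 2 h, and settled at a plateau well above the start. In sta6 the level of ATG8 was 78.9 RPKM before the wash and 156 at 0 h, then 154, 325 and 165 RPKM at 0.5, 2 and 4 h. It read 217 and 230.3 at 8 and 12 h, 236 and 334 at 24 and 48 h, and 393 at 0 h after the boost. Both strains had a high value at 2 h, and in sta6 the value at 4 h was close to that at 0.5 h before the level climbed again.

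At 2 h the ATG8 level was 6.62 times the pre-wash level in CC-4349, with a 95% counting interval of 6.25 to 7.01, and 4.13 times in sta6, with an interval of 3.78 to 4.50. These ratios compare single libraries, and their intervals cover counting error only. Median-of-ratios scaling divides each library by its median ratio to the geometric mean of the libraries. With it the 2 h ratios of ATG8 were 5.70 in CC-4349 and 3.76 in sta6, below these intervals. Part of the difference from the pre-wash level was there as soon as the wash was over. At 0 h the level was 1.99 times the pre-wash level in CC-4349 (1.86 to 2.14) and 1.98 times in sta6 (1.81 to 2.16). After median-of-ratios scaling the 0 h ratios were 2.28 and 2.37, above these counting intervals. The 0 h libraries belong to the replete phase, whose range therefore overlapped that of early starvation for ATG8 in both strains.

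ATG3, the conjugating enzyme, stood at a mean of 44.6 RPKM. In CC-4349 it read 17.05 RPKM before the wash and 24.5 at 0 h, then 29.2, 88.4 and 47.3 RPKM at 0.5, 2 and 4 h. From 8 h without nitrogen to 0 h after the boost it read 45.2, 44.1, 44.8, 39.7 and 46.1 RPKM. After 4 h its level stayed in a narrow band. In sta6 ATG3 read 17.2 RPKM before the wash and 32.5 at 0 h, then 32.0, 66.6 and 41.0 RPKM at 0.5, 2 and 4 h. From 8 h without nitrogen to 0 h after the boost it read 41.0, 43.9, 42.3, 55.4 and 58.6 RPKM. Like ATG8, ATG3 was highest at 2 h in CC-4349. In sta6 its highest value was also the one at 2 h. The 2 h level of ATG3 was 5.19 times the pre-wash level in CC-4349 (4.67 to 5.77) and 3.87 times in sta6 (3.28 to 4.58). After median-of-ratios scaling these ratios were 4.46 and 3.53.

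ATG4, the protease that processes ATG8 and releases it, stood at a mean of 19.5 RPKM. In CC-4349 it read 4.67 RPKM before the wash and 4.85 at 0 h, then 14.2, 25.2 and 13.2 RPKM at 0.5, 2 and 4 h. It then read 14.1 and 16.4 at 8 and 12 h, 22.1 and 13.3 at 24 and 48 h, and 22.7 at 0 h after the boost. Unlike ATG8, its mRNA differed little between the pre-wash library and 0 h, at 1.04 times, and stood 2.92 times higher at 0.5 h than at 0 h (2.44 to 3.51), where 9.78% of gene models were at least 2-fold higher. After median-of-ratios scaling these ratios of CC-4349 were 1.19 and 2.51. In sta6 the 0 h level of ATG4 was 1.31 times the pre-wash level (1.03 to 1.67), or 1.57 times after median-of-ratios scaling. In sta6 ATG4 read 4.97 RPKM before the wash and 6.52 at 0 h, then 11.8, 26.5 and 19.1 RPKM at 0.5, 2 and 4 h. It then read 18.0 and 15.2 at 8 and 12 h, 14.8 and 11.9 at 24 and 48 h, and 37.3 at 0 h after the boost. That last reading was the highest ATG4 value of all 34 libraries and followed the lowest value of sta6 after 0.5 h of starvation. The 2 h level of ATG4 was 5.39 times the pre-wash level in CC-4349 (4.69 to 6.20) and 5.33 times in sta6 (4.35 to 6.58). After median-of-ratios scaling these ratios were 4.63 and 4.85.

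ATG12, the ubiquitin-like partner of ATG5, had the lowest mean, 15.9 RPKM. In CC-4349 it read 8.93 RPKM before the wash and 5.86 at 0 h, then 9.89, 21.2 and 17.9 RPKM at 0.5, 2 and 4 h. It then read 21.0, 21.9, 21.9 and 18.5 at 8, 12, 24 and 48 h, and 18.5 at 0 h after the boost. ATG12 in CC-4349 had no separate high point at 2 h. In sta6 ATG12 read 5.91 RPKM before the wash and 6.35 at 0 h, then 14.2, 21.1 and 15.5 RPKM at 0.5, 2 and 4 h. It then read 16.8, 20.1, 15.9 and 16.2 at 8, 12, 24 and 48 h, and 12.5 at 0 h after the boost. In sta6 the pre-wash library held 51 reads of this gene model, the fewest behind any member value. The 2 h level of ATG12 was 2.38 times the pre-wash level in CC-4349 (1.98 to 2.87) and 3.58 times in sta6 (2.57 to 5.06). After median-of-ratios scaling these ratios were 2.05 and 3.26.

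**Figure D1:**
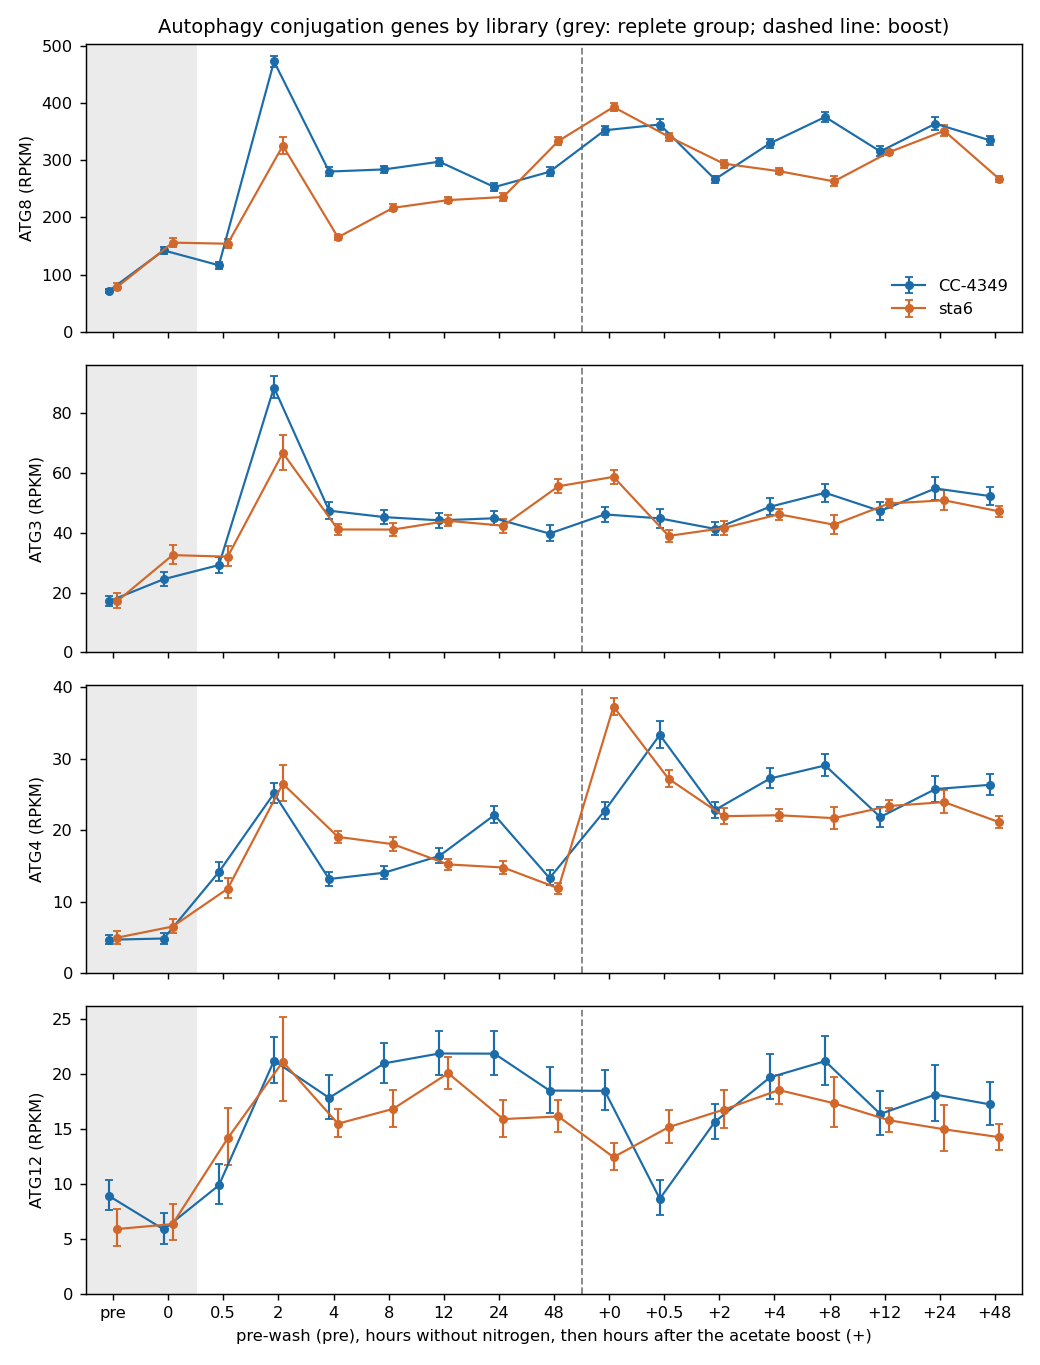
Level of ATG8, ATG3, ATG4 and ATG12 in RPKM (vertical axis, 1 panel per gene) in each of the 34 libraries, by time point (horizontal axis) and strain; each point is 1 library. The lowest value of each gene in each strain is in the replete phase, and ATG8 and ATG3 are highest at 2 h in CC-4349, at 473 and 88.4 RPKM.

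At least 2-fold higher levels were found for all 4 members at 2 h than before the wash in both strains. Of the 14513 gene models that averaged 1 RPKM or more, 11.3% in CC-4349 and 12.5% in sta6 were at least 2-fold higher in this comparison. Over the 16 time points after the pre-wash library, ATG4 was at least 2-fold above it at 15 in each strain, and ATG8 and ATG3 were at 14 in each strain. ATG12 was at least 2-fold above it in RPKM at 15 time points in sta6 and at 9 in CC-4349, where the pre-wash level was higher. On log2(RPKM + 1), the scale of the shares of gene models that follow, these ATG12 counts were 14 and 6, and those of the other members were the same. At single time points, 3.06% to 21.1% of gene models in CC-4349 and 4.59% to 18.8% in sta6 were at least 2-fold above the pre-wash library. No member was 2-fold below its pre-wash level at any time.

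The phases were compared on log2(RPKM + 1), which understates the change of low genes, with limma, Benjamini-Hochberg adjustment over all 14513 gene models and a threshold of adjusted p under 0.05. Averaged over the strains, all 4 members rose from the replete phase to early starvation, with adjusted p = 0.0027 for ATG8, 0.00039 for ATG3, 1.5e-05 for ATG4 and 3.0e-05 for ATG12. The rise of ATG8 was 1.08 on the log2 scale (SE 0.27), from 112 ± 43.2 RPKM (SD, n = 4) to 252 ± 135 (n = 6). The rise of ATG3 was 1.06 (SE 0.21), from 22.8 ± 7.33 to 50.7 ± 22.8 RPKM. ATG4 had the largest rise of the 4, 1.57 (SE 0.24), from 5.25 ± 0.855 to 18.3 ± 6.33 RPKM, and ATG12 rose by 1.16 (SE 0.19), from 6.76 ± 1.46 to 16.6 ± 4.38 RPKM. Of all gene models tested, 34.7% rose by the same rule and 7.38% did so by at least 2-fold, as all 4 members did. These 2-fold counts are on the deposited scale, where ATG8 (1.08) and ATG3 (1.06) lay just above the 2-fold mark. The median of the members was 1.12 and that of all gene models 0.23.

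All 4 members also stood higher in middle and late starvation than in the replete phase. In middle starvation the log2 change was 1.26 for ATG8, 0.95 for ATG3, 1.44 for ATG4 and 1.44 for ATG12, with limma adjusted p between 2.2e-06 and 0.0016. In late starvation it was 1.51 (SE 0.27) for ATG8, 1.07 (SE 0.21) for ATG3, 1.68 (SE 0.24) for ATG4 and 1.23 (SE 0.19) for ATG12, with limma adjusted p between 1.0e-06 and 0.00011. The background had grown by then, since 36.0% of gene models rose in middle and 42.8% in late starvation. At least 2-fold rises were made by 13.2% and 18.4% of gene models, against 3 and 4 of the 4 members. In late starvation the change of ATG4 exceeded that of 93.3% of gene models and the change of ATG3 that of 83.4%. In each of these comparisons the median of all gene models lay between 0.23 and 0.26 above zero on the deposited scale and between 0.01 and 0.04 after median-of-ratios scaling. With that scaling the late starvation changes were 1.21, 0.78, 1.41 and 0.96 for ATG8, ATG3, ATG4 and ATG12, and all 4 members passed in each of the 3 starvation phases. The late changes of ATG3 and ATG12 were then under 2-fold.

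**Figure D2:**
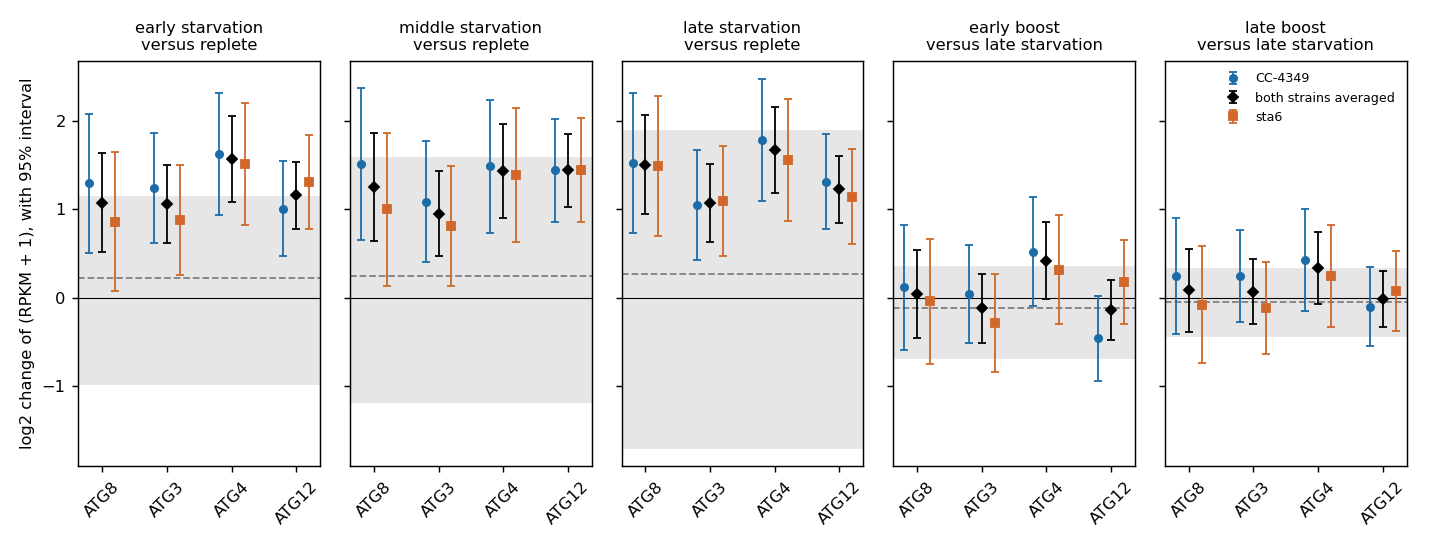
Log2 change (vertical axis) of the 4 genes (horizontal axis), 1 panel per comparison, averaged over the strains and within each strain. Bars are 95% confidence intervals from limma. The median and the 5th to 95th percentile of all 14513 gene models are those of the averaged comparison. Averaged over the strains, the starvation changes of the 4 genes lie between 0.95 and 1.68. The intervals of the boost changes all include 0.

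Within single strains the tests rest on 2 replete libraries each. In CC-4349 all 4 members passed in each starvation phase, where 13.5% (early), 23.0% (middle) and 35.8% (late) of gene models rose. The early rises of CC-4349 were 1.30 for ATG8, 1.24 for ATG3, 1.63 for ATG4 and 1.01 for ATG12. Left out, the starvation libraries at 0 h and the boost libraries at 0.5 h took ATG12 below the threshold there (0.74, limma adjusted p = 0.11). Median-of-ratios scaling ended 4 single-strain calls, those of ATG8 (limma adjusted p = 0.074 early) and ATG3 (0.065 middle and 0.067 late) in CC-4349 and that of ATG3 in early starvation of sta6 (0.12). With that scaling 8.85% (early), 16.4% (middle) and 24.4% (late) of gene models rose in CC-4349, and 15.9% in early starvation of sta6. In sta6 ATG3, ATG4 and ATG12 passed in early starvation, with changes of 0.88, 1.52 and 1.31, where 24.6% of gene models rose. ATG8 did not pass there, at 0.86 with adjusted p = 0.085 by limma, and its early starvation values of 154, 325 and 165 RPKM overlapped the replete values of 78.9 and 156. In middle starvation ATG4 (1.39) and ATG12 (1.45) passed in sta6, where 26.9% of gene models rose, while ATG8 (1.00) and ATG3 (0.82) had limma adjusted p of 0.063 and 0.055. With the matched time point as a random block all 4 passed in that comparison, with adjusted p of 0.042 for ATG8 and 0.034 for ATG3, where 26.9% of gene models rose. All 4 also passed there when the starvation libraries at 0 h and the boost libraries at 0.5 h were left out, where 18.8% of gene models rose. In late starvation all 4 passed in sta6, where 32.6% of gene models rose. Several of these single-strain counts turned on 1 library. Without the pre-wash library of CC-4349, 2 of 4 members passed in each starvation phase of that strain, where 14.2% (early), 20.5% (middle) and 32.8% (late) of gene models rose. Without the 2 h library of CC-4349, only ATG4 passed in early starvation there, where 5.55% of gene models rose. Without the pre-wash library of sta6, 2 members passed in early and 2 in late starvation of that strain, where 26.2% and 32.0% of gene models rose. The early change of ATG3 in sta6 was then 0.44, with limma adjusted p = 0.35. It was 0.59, with adjusted p = 0.17, without the 2 h library of sta6. ATG8 passed in early starvation of sta6 without the 0.5 h library of that strain (1.06, limma adjusted p = 0.041). It also passed without the 0.5 h or the 2 h library of CC-4349, which left its change at 0.86 (adjusted p of 0.031 and 0.049).

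The smaller counts in sta6 do not show a smaller response. The difference between the strains in the change was tested for each member and phase, and 0 of 4 passed in every starvation phase, with 0 at an unadjusted p under 0.05. For ATG8 the early starvation change in sta6 minus that in CC-4349 came to -0.43, with a 95% confidence interval of -1.55 to 0.69. The interval leaves room for a difference of more than 2-fold, so the test could not resolve one of that size. That test did not pair the strains by time point, although matched time points deviated together (consensus correlation 0.528). Across all 4 members the differences ran from -0.43 to 0.31 in early, from -0.51 to 0.0027 in middle and from -0.22 to 0.04 in late starvation. Few gene models passed these tests at all, 0.11% in early, 0.496% in middle and 3.44% in late starvation.

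The step from 48 h without nitrogen to 0 h after the boost spans libraries that both follow 48 h of starvation. ATG4 differed most across it. In sta6 its level was 3.14 times higher at 0 h after the boost than at 48 h (2.93 to 3.38), a fold passed upwards by few gene models, since 1.27% were at least 2-fold higher. In CC-4349 the ATG4 ratio was 1.71 (1.55 to 1.88), below the 2-fold mark that 1.24% of gene models passed. After median-of-ratios scaling the ATG4 ratio was 3.63 in sta6 and 1.72 in CC-4349. ATG8 differed less, by 1.18 times in sta6 and 1.26 times in CC-4349. The labels do not say how long after the acetate was added the 0 h sample was taken, and each value is 1 library.

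After the boost no member passed against late starvation. ATG8 read 363, 267 and 329.7 RPKM at 0.5, 2 and 4 h in CC-4349, and 341, 294 and 281 in sta6. From 8 to 48 h it read 376, 315, 364 and 335 RPKM in CC-4349, and 263, 314, 352 and 267 in sta6. These values overlapped the late starvation values in both strains, which were 253 to 352 RPKM in CC-4349 and 236 to 393 in sta6. ATG3 read 44.7, 41.2 and 48.6 RPKM in the early boost of CC-4349 and 38.9, 41.5 and 46.1 in that of sta6. In the late boost ATG3 read 53.3, 47.2, 54.7 and 52.1 RPKM in CC-4349 and 42.6, 49.7, 50.8 and 47.1 in sta6. In CC-4349 the late boost values of ATG3 lay above its late starvation values of 39.7 to 46.1 RPKM, but in sta6 the ranges overlapped.

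ATG4 read 33.4, 22.8 and 27.2 RPKM in the early boost of CC-4349 and 27.2, 22.0 and 22.1 in that of sta6. In the late boost ATG4 read 29.1, 21.8, 25.8 and 26.4 RPKM in CC-4349 and 21.7, 23.4, 23.9 and 21.1 in sta6. All 14 boost values lay above those at 8 and 12 h without nitrogen, which were 14.1 and 16.4 RPKM in CC-4349 and 18.0 and 15.2 in sta6. They overlapped the late starvation values of ATG4 in both strains, which were 13.3 to 22.7 RPKM in CC-4349 and 11.9 to 37.3 in sta6. ATG12 read 8.66, 15.7 and 19.7 RPKM in the early boost of CC-4349 and 15.2, 16.8 and 18.6 in that of sta6. In the late boost ATG12 read 21.2, 16.4, 18.2 and 17.3 RPKM in CC-4349 and 17.4, 15.8, 15.0 and 14.3 in sta6. The value at 0.5 h in CC-4349 stood apart, below the pre-wash level of 8.93 RPKM. It rested on 115 reads and was 0.468 times the value at 0 h after the boost (0.378 to 0.577), or 0.626 times after median-of-ratios scaling. In that step 17.1% of gene models were at least 2-fold lower in CC-4349, and this was the library of the strain with the fewest gene models at 1 RPKM or more, 13046. Its part in the low value was not tested.

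Against late starvation, 0 of 4 members passed in the early boost by limma, where 10.7% of gene models passed in either direction, 1.24% upwards and 9.49% downwards. None had an unadjusted p under 0.05. The changes were 0.04 for ATG8, -0.12 for ATG3, 0.42 for ATG4 and -0.14 for ATG12. In the late boost 0 of 4 passed, again with none at an unadjusted p under 0.05, against 2.65% of gene models. The late boost changes were 0.08, 0.06, 0.33 and -0.01 in the same order. Averaged over the strains, the 95% confidence intervals in the early boost were -0.46 to 0.54 for ATG8 and -0.52 to 0.27 for ATG3. They were -0.02 to 0.85 for ATG4 and -0.48 to 0.20 for ATG12. A change of 2-fold lay outside each of these averaged intervals. In CC-4349 alone the early boost interval of ATG4 was -0.10 to 1.14, which includes 2-fold. Within strains, the value for ATG12 in the early boost was -0.46 in CC-4349 and 0.18 in sta6. The difference of 0.64 did not pass, with adjusted p of 1.00 by limma and an unadjusted p of 0.066. Of all gene models 0.00689% passed that test.

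The result for ATG4 in the early boost depended on the libraries at 0 h after the boost, which were counted as late starvation. With these 2 libraries left out the change of ATG4 was 0.72, with limma adjusted p = 0.026, and 1 of 4 members passed, where 7.49% of gene models passed in either direction and 1.18% upwards. Without the sta6 library alone it was 0.65, with adjusted p = 0.020, and 12.2% of gene models passed, 1.74% upwards. Over all alternatives this p ran from 0.020 to 0.61.

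No difference in level between the strains passed for any of the 4 mRNAs. In the fit blocked by time point, the level in sta6 relative to CC-4349 was -0.13 (SE 0.08) on the log2 scale for ATG8, -0.01 (SE 0.06) for ATG3, -0.02 (SE 0.08) for ATG4 and -0.11 (SE 0.08) for ATG12. The limma tests gave adjusted p between 0.19 and 0.87, with 0 of 4 at an unadjusted p under 0.05, whereas 46.2% of all gene models differed between the strains by this test. The 95% confidence intervals of the 4 differences lay between -0.29 and 0.15. Without the starvation libraries at 0 h and the boost libraries at 0.5 h, ATG12 passed, at -0.18 with adjusted p = 0.040, where 47.5% of gene models passed. The level in sta6 was the higher one at 6 of 17 time points for ATG8, at 7 for ATG3, at 7 for ATG4 and at 4 for ATG12. No member was 2-fold apart between the strains at any time point. The widest gap for ATG8 was -0.76 at 4 h without nitrogen, and for ATG4 it was 0.69 at 0 h after the boost. For ATG12 it was 0.74 at 0.5 h after the boost, and for ATG3 it was 0.47 at 48 h without nitrogen.

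ATG8 and ATG3 followed each other most closely. Their Pearson correlation of log2(RPKM + 1) over the 34 libraries was 0.919, and 0.940 within CC-4349 and 0.896 within sta6. Among the other gene models, 3 were closer to ATG8 than ATG3 was, and 2 were closer to ATG3 than ATG8 was. Without the replete libraries the correlation over 30 libraries was 0.790. ATG4 and ATG12 were the least alike pair, at 0.636, and at -0.11 without the replete libraries. For that pair 1656 other gene models were closer to ATG4 and 1851 were closer to ATG12. The remaining pairs lay between 0.679 and 0.834, with 107 to 1379 gene models closer to a member than its partner was. These correlations describe libraries that share the same wash, depth and time course, and the points are not independent.

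The ratios of the levels describe the same values in another way, here for the most and the least alike pair. ATG8 stood at 3.99 to 8.78 times the level of ATG3, with a median of 6.13. The ratio was 4.19 to 5.82 in the replete phase of CC-4349 and 4.59 to 4.80 in that of sta6. In the late boost it was 6.42 to 7.05 and 5.68 to 6.92. The late boost ratios lay above the replete ratios in both strains, with no overlap. ATG4 stood at 0.523 to 3.85 times the level of ATG12. In the replete phase the ratio ran from 0.523 to 0.827 in CC-4349 and from 0.842 to 1.03 in sta6. In the late boost it was 1.33 to 1.53 and 1.25 to 1.60. ATG4 was below ATG12 at the start in CC-4349 and above it in all 8 late boost libraries. The highest ratio of each strain fell beside the boost, at 3.85 in CC-4349 at 0.5 h, where ATG12 was low, and at 2.996 in sta6 at 0 h, where ATG4 was high.

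**Figure D3:**
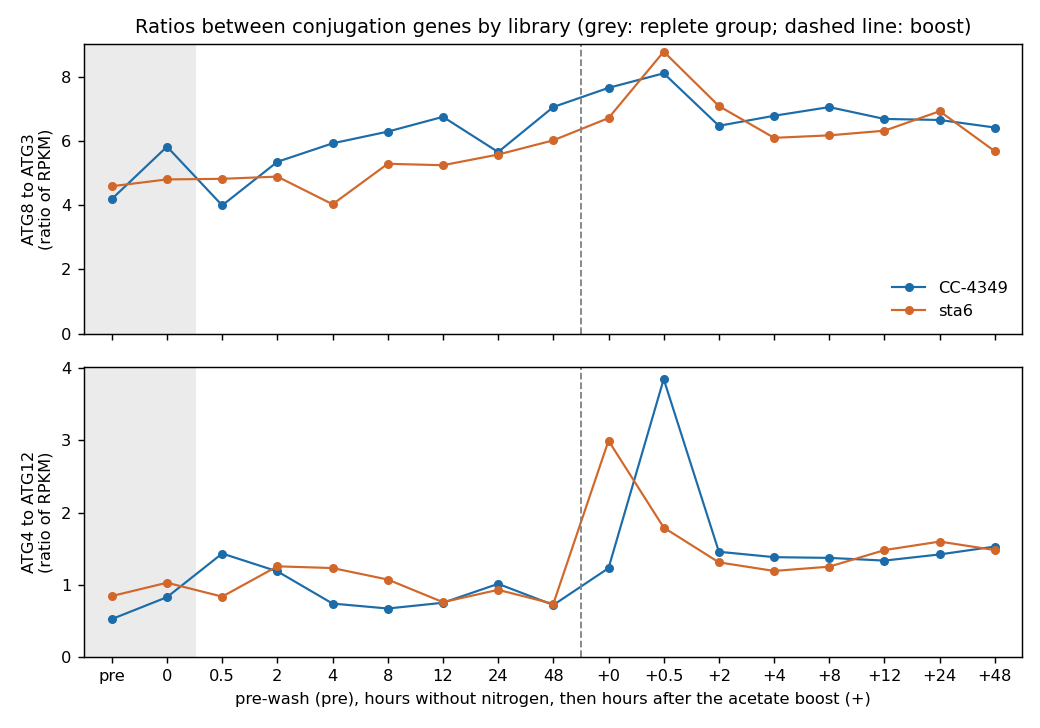
Ratio of RPKM (vertical axis) of ATG8 to ATG3 and of ATG4 to ATG12 in each of the 34 libraries, by time point (horizontal axis) and strain; each point is 1 library. The ATG8 to ATG3 ratio stays between 3.99 and 8.78, while the ATG4 to ATG12 ratio reaches 3.85 in CC-4349 (boost, 0.5 h) and 2.996 in sta6 (boost, 0 h).

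The order of the phases by mean level had the replete phase at the bottom for all 4 members in both strains. For ATG4 the replete range lay apart from every other phase in both strains, as it did for ATG3 in CC-4349 and for ATG12 in sta6. For ATG3 in sta6 it lay apart from the next phase by mean, the early boost, but overlapped early starvation, since the value at 0.5 h (32.0 RPKM) was below that at 0 h (32.5). The replete range overlapped the next phase for ATG8 in both strains and for ATG12 in CC-4349, where the low library at 0.5 h after the boost lay within the replete range. Above the replete phase, phases next to each other in the order overlapped in every case but 1, ATG8 in sta6 between middle starvation (217 to 230.3 RPKM) and the late boost (263 to 352). Phases further apart in the order could still be separate. For ATG4 the late boost lay above middle starvation in both strains, and for ATG3 in CC-4349 it lay above late starvation.

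The gene models with the most similar profiles over the 34 libraries were named by their correlation alone. For ATG8 they were Cre01.g027200 (0.936), Cre05.g247750 (0.922) and Cre06.g263000 (0.921). For ATG3 they were Cre07.g334700 (0.933), Cre06.g263000 (0.927) and ATG8 itself (0.919). For ATG4 they were Cre16.g683000 (0.948), Cre10.g457550 (0.941) and Cre02.g115100 (0.940), and for ATG12 they were Cre14.g615900 (0.932), Cre20.g759900 (0.927) and Cre18.g747500 (0.925). Cre06.g263000 was near both ATG8 and ATG3, at a median of 4.89 RPKM. The files give no names for these loci.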

How the data were processed

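The deposited table listed 17301 gene models with a value for each of the 34 libraries. The authors did not name the unit in it. The deposited values were read as RPKM, because their low values are whole multiples of a step set by gene model and library. Reads were aligned with Bowtie, per the submitters' processing notes. For its version, the genome build, the annotation, the strand setting and the counting rule, the entry is: not given in the sources used here. As a result, reads of overlapping genes or near copies cannot be assigned. Library totals and member lengths were solved from these steps, using 2006 gene models. The member lengths came to 1073 bases for ATG8, 1379 for ATG3, 2889 for ATG4 and 1034 for ATG12, and all 136 member values were whole reads within 0.01 reads. Intervals of ratios are 95% Poisson intervals and cover counting error only.

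Columns were matched to samples by the name in each description. For the 24 h boost sample of sta6, the column name and the description have unlike endings, and the rest of the name was used. Values were analysed as log2(RPKM + 1) with limma 3.58.1, using its trended empirical Bayes step under R 4.3.3, in the 14513 gene models with a mean of at least 1 RPKM, with Benjamini-Hochberg adjustment. All 4 members passed this filter. Phases were contrasts in 1 model with a group for each strain and phase (12 groups, 22 residual degrees of freedom), and the strain difference had the time point as a block. Figures and other values used Python 3.11.15. Matched time points deviated together (consensus correlation 0.528), the pairing coming from the time labels. Recovery of changed genes and of depth was tested on simulated data. Alternatives were other pseudocounts, filters, scalings, blocks and left-out libraries.

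The members were named whatever their values, along with the 3 gene models most correlated with each. Members and comparisons were chosen with earlier results of these data known. The reference table of assembly Chlamydomonas_reinhardtii_v5.5 matched 12666 identifiers and all 4 members by locus tag. It gave no names, so 0 further pathway genes were named, and no sequences or coordinates are printed.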

Additional observations from a re-analysis of the deposited data

How the results depend on the processing

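The rises of all 4 members in early, middle and late starvation, averaged over the strains, passed under every alternative run, other pseudocounts, filters, scalings, blocks and left-out libraries included. With the matched time point as a random replicate block, 4 of 4 members passed in middle starvation of sta6 instead of 2, and no other count of members moved by more than 1.5 times under the block. Without the starvation libraries at 0 h and the boost libraries at 0.5 h, 4 of 4 also passed there and 1 of 4 passed for the strain difference instead of 0. With 0 h after the boost left out, 1 of 4 passed in the early boost. The cause of these moves was not tested. With each library left out in turn, the count of members that passed ran from 0 to 1 in the early boost, from 1 to 4 in early, 2 to 4 in middle and 2 to 4 in late starvation of CC-4349, and from 2 to 4 in each of early, middle and late starvation of sta6. The early count of sta6 was 2 without its 2 h library, where 14.8% of gene models rose. It was 4 without its 0.5 h library, where 32.8% rose. The count was also 4 without the 0.5 h library of CC-4349 (26.6% rose) or its 2 h library (24.7%). Without the pre-wash library of sta6, 1 replete library of that strain remained, and its early change of ATG3 was 0.44. The middle starvation count of sta6 was 4 without the 0.5 h library of CC-4349 (28.8% of gene models rose) or its 2 h library (27.4%). It was also 4 without the 2 h library of sta6 (27.3%). Other fits left 1 library in a group. Without the 0 h library of sta6, its middle changes of ATG8 and ATG3 were 1.49 and 1.26. In CC-4349 these changes were 1.02 and 0.84 without its pre-wash library, and 1.48 and 1.11 without its 12 h library. Median-of-ratios scaling ended the calls of ATG3 in early starvation of sta6 (0.63, limma adjusted p = 0.12), of ATG8 in early starvation of CC-4349 (1.08, adjusted p = 0.074) and of ATG3 in its middle (0.84, adjusted p = 0.065) and late starvation (0.69, adjusted p = 0.067). Under that scaling 15.9% of gene models rose in early starvation of sta6. The shares in CC-4349 were 8.85% (early), 16.4% (middle) and 24.4% (late).

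Only changes near 0 turned sign. Under median-of-ratios scaling the strain difference became 0.032 for ATG3 and 0.024 for ATG4, the early boost change 0.049 for ATG3 and 0.022 for ATG12, and the late boost change 0.052 for ATG12. Under quantile normalization the strain difference of ATG4 became 0.013 and the late boost change of ATG12 0.021. With the 0 h boost libraries moved to the early boost phase, the early boost change of ATG3 became 0.0067. Without the starvation libraries at 0 h and the boost libraries at 0.5 h, the early boost change became -0.053 for ATG8 and 0.049 for ATG12. With each library left out in turn, the strain difference ran from -0.044 to 0.011 for ATG3 and from -0.065 to 0.013 for ATG4. The early boost change ran from -0.066 to 0.12 for ATG8 and from -0.26 to 0.015 for ATG12, and the late boost change from -0.020 to 0.16 for ATG8, from -0.0056 to 0.11 for ATG3 and from -0.071 to 0.024 for ATG12.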
